A study of Mus musculus with 8 samples.

Results

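The genes described are 10 cell adhesion genes of T cells: Cd44, the ICAM genes Icam1 and Icam2, and the integrin chain genes Itgal, Itgb2, Itga4, Itgb1, Itgb7, Itgae and Itgav. They were chosen by symbol, and every array probe annotated to them was followed. Of the 10 symbols, 9 had a named probe, among 16593 genes named on the array. These 9 genes held 20 probes, of which 10 probes of 8 genes were kept for testing because they were detected on at least 2 of 8 arrays (detection p under 0.01). Itgal had no named probe and Itga4 was detected on no array.

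The study measured naive CD4+ T cells activated for the first time with or without a Notch ligand. All cells were sorted as CD62L+CD44-CD25-DX5-CD4+ from lymph nodes and spleen of C57BL6/NCrl mice, so low surface CD44 protein was a condition of entry in every group. In all groups the T cell receptor and the costimulatory receptor CD28 were engaged by antibodies rather than by antigen-presenting cells. The antibodies were plate-bound anti-CD3e at 10 µg/ml and soluble anti-CD28 at 1 µg/ml. The wells also carried plate-bound recombinant Delta4-Ig, the Notch ligand Delta-like 4 joined to an immunoglobulin part, or control Ig, each at 5 µg/ml. RNA was taken at day 1 from mouse 1 and at day 3 from mouse 1 and mouse 2 for each stimulus. Mouse 1 at day 3 had a second, technical array for each stimulus, so 8 Illumina BeadChip arrays stood for 6 samples from 2 mice.

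CD44 is a surface receptor for the matrix sugar hyaluronan, and its rise on T cells is a usual sign of activation and memory. Integrins are pairs of an alpha and a beta chain that hold T cells to other cells and to matrix: the alpha L chain (Itgal) with beta 2 (Itgb2) forms LFA-1, which binds the ICAM proteins, alpha 4 (Itga4) pairs with beta 1 (Itgb1) or beta 7 (Itgb7), and alpha E (Itgae) pairs with beta 7 to bind E-cadherin on epithelium. Notch ligands lead to release of the Notch intracellular domain, which acts in the nucleus with the DNA-binding protein RBPJ.

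Promoters from RefSeq (build GRCm38.p6, 250 bases before to 50 after the start) were matched for 6 members, namely Cd44, Icam1, Itga4, Itgb1, Itgb7 and Itgav. They were searched on both strands for TGGGAA, the core letters bound by RBPJ, and for GGAAATTCC, an NF-kappa-B site known from the human ICAM1 promoter. None of the 6 promoters held both motifs. The promoters of Cd44 (chr2:102901616-102901915, minus strand) and Icam1 (chr9:21015690-21015989, plus strand) are shown, 5′ to 3′ along the gene, because they held the matches, which stand in capitals:
Cd44: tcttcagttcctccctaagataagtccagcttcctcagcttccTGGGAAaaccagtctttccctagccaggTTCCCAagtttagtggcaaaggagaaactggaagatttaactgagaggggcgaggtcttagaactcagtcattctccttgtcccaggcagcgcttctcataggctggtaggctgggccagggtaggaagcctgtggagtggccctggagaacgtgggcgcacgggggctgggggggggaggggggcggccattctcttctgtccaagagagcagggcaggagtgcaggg
Icam1: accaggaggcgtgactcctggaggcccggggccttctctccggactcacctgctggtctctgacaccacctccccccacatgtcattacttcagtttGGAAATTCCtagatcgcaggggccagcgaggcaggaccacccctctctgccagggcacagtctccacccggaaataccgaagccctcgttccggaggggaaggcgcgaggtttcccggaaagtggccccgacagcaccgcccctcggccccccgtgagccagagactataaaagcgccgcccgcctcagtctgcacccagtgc

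In the Cd44 promoter TGGGAA matched at -207 to -202 from the start and, on the other strand, at -179 to -174. At least 1 such match occurred in 25.56% of 32851 promoters of this length, and 2 or more in 3.79%. The other 5 matched members held none. In the Icam1 promoter GGAAATTCC matched at -153 to -145, and 0.3166% of the promoters held it. These are matches of letters, not measured binding, and a promoter without a match says only that these letters were not in this window.

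Values are normalized log2 intensities, and a difference of 1 is a 2-fold difference. Levels of different probes are not comparable with each other, since each probe has its own brightness. Per array, 8940 to 10543 of 25697 probes were detected, and no day 1 group had a replicate. The 8 measured CD4 T cell markers (Cd4 and the CD3 chain genes among them) were detected on all 8 arrays. Of the 2 CD8 T cell markers, Cd8b1 was detected on all 8 arrays and Cd8a on no array. Of the B cell markers 5 of 6 were detected on no array and 1 on 1 array. All 7 markers of monocytes, macrophages and dendritic cells were detected on no array.

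Cd44 (chr2:102811141-102901669) was lower with Delta4-Ig at day 3. Its detected probe, ILMN_3114585, stood at 11.51 in mouse 1 and 11.16 in mouse 2 with control Ig, and at 9.19 and 8.55 with Delta4-Ig. The groups did not overlap, and both Delta4-Ig samples lay below the control level of day 1, which was 9.44. Within mouse 1 the level was 4.97-fold lower and within mouse 2 it was 6.09-fold lower. With the mouse as a block, Cd44 fell by 2.46 ± 0.31 (log2, SE) or 5.50-fold, from 11.33 ± 0.25 to 8.87 ± 0.45 (SD, n = 2 mice), with a limma adjusted p = 0.0205. In bulk RNA, fewer cells with the transcript and less of it per cell cannot be told apart.

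The fit without the block, which was the main one, gave the same difference with an SE of 0.41 and did not call it (limma adjusted p = 0.736). That fit called 0 of 10744 probes, 0% of those tested, with 302 probes and 2 member probes at an unadjusted p under 0.05. The fit with the block called 1 of 10 member probes, against 0.707% of all tested probes in either direction and 0.289% lower. The words rose and fell are used below only for genes past the adjusted threshold of 0.05 in the blocked fit. The Cd44 call was lost with the block when no background correction was made (-2.15, limma adjusted p = 0.106) or when no detection filter was used (-2.46, limma adjusted p = 0.294).

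**Figure D1:**
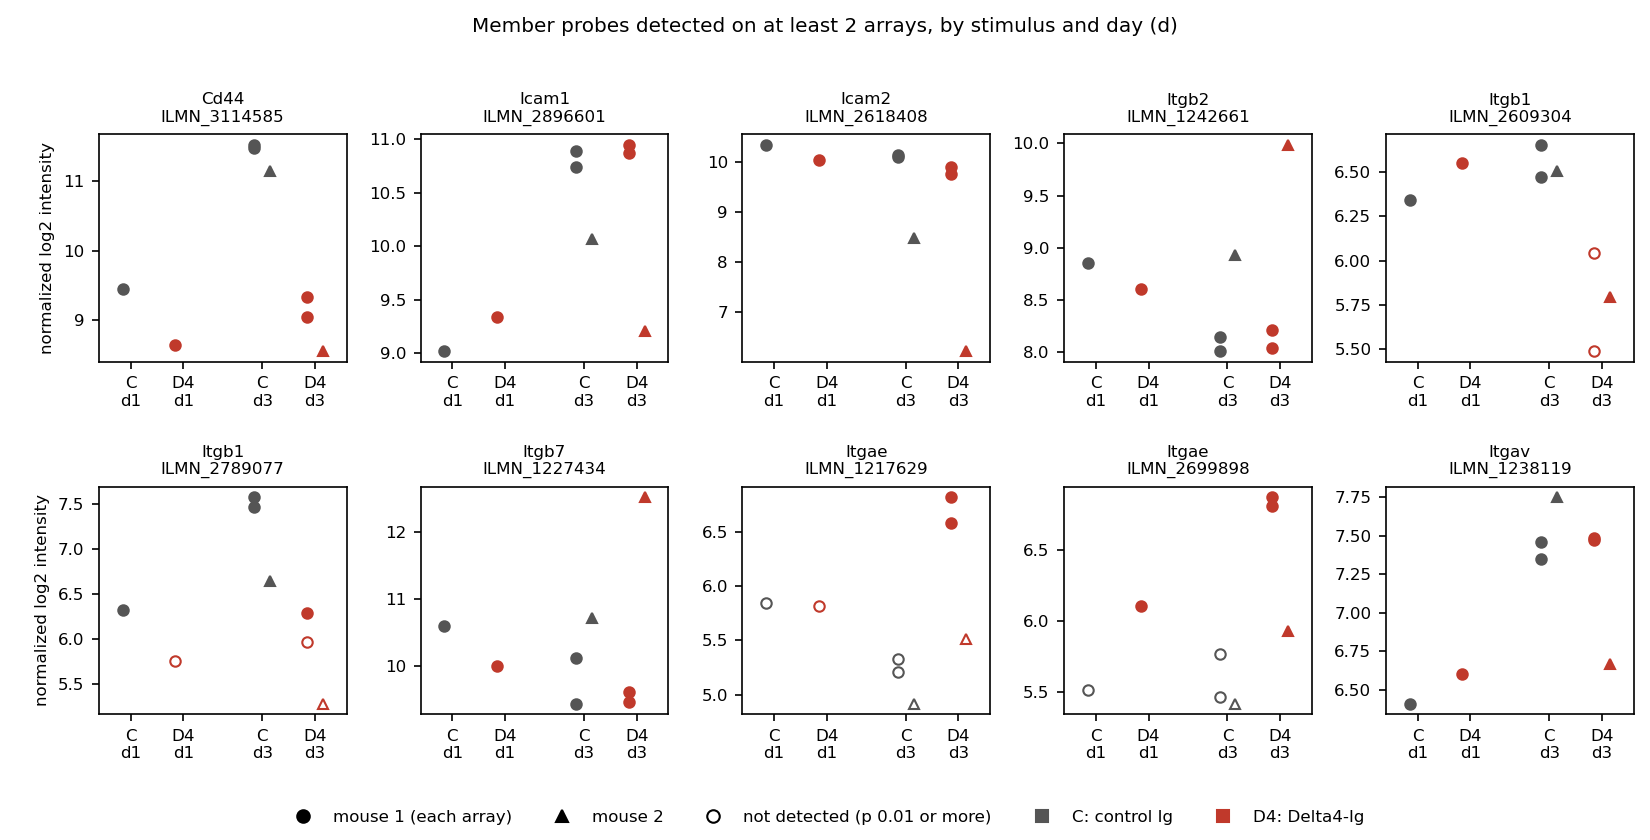
Normalized log2 intensity (y axis) of the 10 kept member probes, 1 panel a probe, by stimulus and day (x axis: C control Ig, D4 Delta4-Ig, d1 day 1, d3 day 3). Circles are single arrays of mouse 1, triangles are mouse 2 and open marks are arrays without detection; Cd44 is the panel in which the day 3 groups lie farthest apart, with all control Ig marks at 11.16 or above and all Delta4-Ig marks at 9.33 or below.

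The array carried 5 further Cd44 probes, all annotated to a different RefSeq transcript record from the bright one. Of these, 3 were detected on no array and 2 on 1 control Ig array each, so none was kept. ILMN_2754990 stood at 5.82 and 6.70 with control Ig and at 5.01 and 4.95 with Delta4-Ig at day 3. It was detected on 1 of 3 control arrays and 0 of 3 Delta4-Ig arrays. Its control mean lay 1.20-fold above the lowest detected signal. That mean holds mouse 1, detected on neither array, so this is no lower bound. ILMN_2697830 stood at 6.38 and 4.79 with control Ig and at 4.80 and 4.91 with Delta4-Ig. Its control mean lay below the lowest detected signal (-0.41, log2). The Cd44 result therefore rested on 1 probe, whose technical arrays differed by 0.05 with control Ig and 0.28 with Delta4-Ig.

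**Figure D2:**
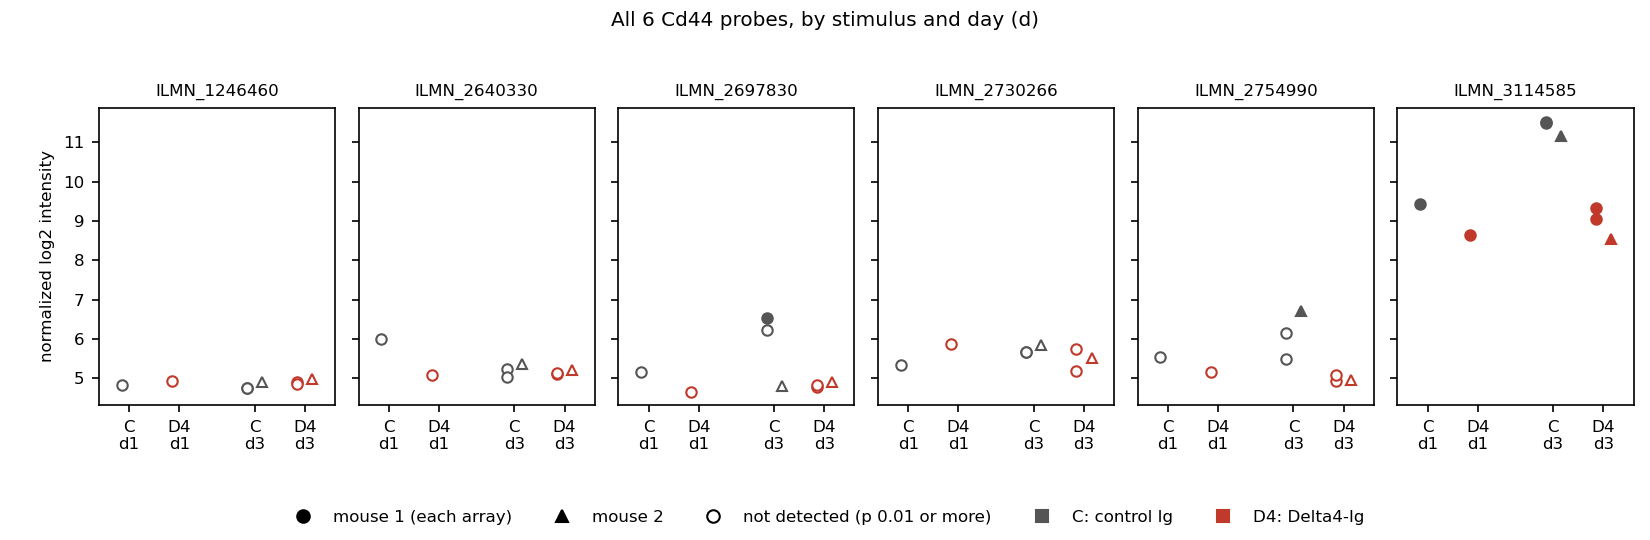
Normalized log2 intensity (y axis) of all 6 Cd44 probes by stimulus and day (x axis), with circles for each array of mouse 1, triangles for mouse 2 and open marks for arrays without detection. Only ILMN_3114585 was detected on all 8 arrays; 2 others reached detection on 1 control Ig array each at day 3.

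Between day 1 and day 3 with control Ig, Cd44 rose by 2.14 ± 0.41 with the mouse as a block, or 4.40-fold (limma adjusted p = 0.0464). Since day 1 was 1 sample, this test took its spread from day 3. The call was lost with the block without background correction (limma adjusted p = 0.0738) and without the detection filter (0.157). In mouse 1 alone the level went from 9.44 to 11.51. With Delta4-Ig it stood at 8.65 at day 1 and at 9.19 in the same mouse at day 3, and the time difference of 0.47 ± 0.41 did not pass (limma adjusted p = 0.630 with the block). Without the block the time differences were 1.89 and 0.22, with limma adjusted p = 0.512 and 0.902. The order of the 6 samples placed both day 3 control Ig samples on top, then control Ig at day 1, then the 3 Delta4-Ig samples. The day 1 control sample lay 0.25 above the next lower sample, mouse 1 with Delta4-Ig at day 3. That gap was less than the 0.28 between the technical arrays of the latter and the 0.64 between the day 3 Delta4-Ig mice. Control Ig at day 1 was 1 sample without a spread of its own, so whether these neighbours differed could not be judged.

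The time difference with control Ig was called for 1 of 10 member probes, against 2.11% of all probes higher and 2.89% in either direction. With Delta4-Ig it was called for 0 of 10 against 2.94%, where 1 member probe and 1855 of all probes had an unadjusted p under 0.05. Without the block limma called 0% of probes in either time contrast, with 646 probes and 1 member probe at an unadjusted p under 0.05 with control Ig, and 901 and 0 with Delta4-Ig.

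The ICAM genes encode ligands of LFA-1. Icam1 (chr9:21015940-21028814) stood at 9.01 at day 1 and at 10.82 and 10.07 at day 3 with control Ig, and at 9.33, then 10.91 and 9.21, with Delta4-Ig. The day 3 groups overlapped. Its Delta4-Ig difference was 0.09 in mouse 1 and -0.86 in mouse 2, -0.38 ± 0.36 with the block (limma adjusted p = 0.789). The time differences of Icam1 were 2.04 ± 0.47 with control Ig and 1.34 ± 0.47 with Delta4-Ig, and neither passed (limma adjusted p = 0.0719 and 0.210 with the block).

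Icam2 (chr11:106377656-106388139), a ligand held by resting lymphocytes and endothelium, stood at 10.34 at day 1 and at 10.12 and 8.48 at day 3 with control Ig. With Delta4-Ig it stood at 10.03, then 9.82 and 6.21. The low sample was mouse 2 with Delta4-Ig, and in both stimuli mouse 2 lay below mouse 1. The difference of -0.30 in mouse 1 and -2.26 in mouse 2 gave -1.28 ± 0.48 with the block and did not pass (limma adjusted p = 0.450).

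Of the beta chains, Itgb1 (chr8:128685654-128733579), shared by many alpha chains, had 2 kept probes. ILMN_2789077 stood at 7.52 and 6.64 with control Ig and at 6.13 and 5.28 with Delta4-Ig at day 3, a difference of -1.39 in mouse 1 and -1.36 in mouse 2. The groups did not overlap, and the probe was detected on 3 of 3 control arrays and 1 of 3 Delta4-Ig arrays, so the lower level lay partly at background. It met the detection filter only through control Ig arrays, so its direction was set in part by that filter. The difference of -1.38 ± 0.31 did not pass (limma adjusted p = 0.133 with the block, unadjusted p = 0.00279). ILMN_2609304 stood at 6.56 and 6.50 with control Ig and at 5.77 and 5.79 with Delta4-Ig, with -0.75 ± 0.31 (limma adjusted p = 0.501) and the same detection counts.

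Itgb2 (chr10:77530329-77565708), the chain of LFA-1, stood at 8.08 and 8.93 with control Ig and at 8.13 and 9.99 with Delta4-Ig at day 3. Its differences were 0.05 in mouse 1 and 1.06 in mouse 2, and 0.55 ± 0.36 together (limma adjusted p = 0.689 with the block). Itgb7 (chr15:102215994-102233405), the chain of the gut-homing integrins, stood at 9.78 and 10.72 with control Ig and at 9.54 and 12.51 with Delta4-Ig. Its differences of -0.24 and 1.80 had opposite signs, and their fit gave 0.78 ± 0.49 (limma adjusted p = 0.680 with the block). Both genes were brightest in mouse 2 with Delta4-Ig, and the technical arrays of Itgb7 with control Ig differed by 0.68.

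**Figure D3:**
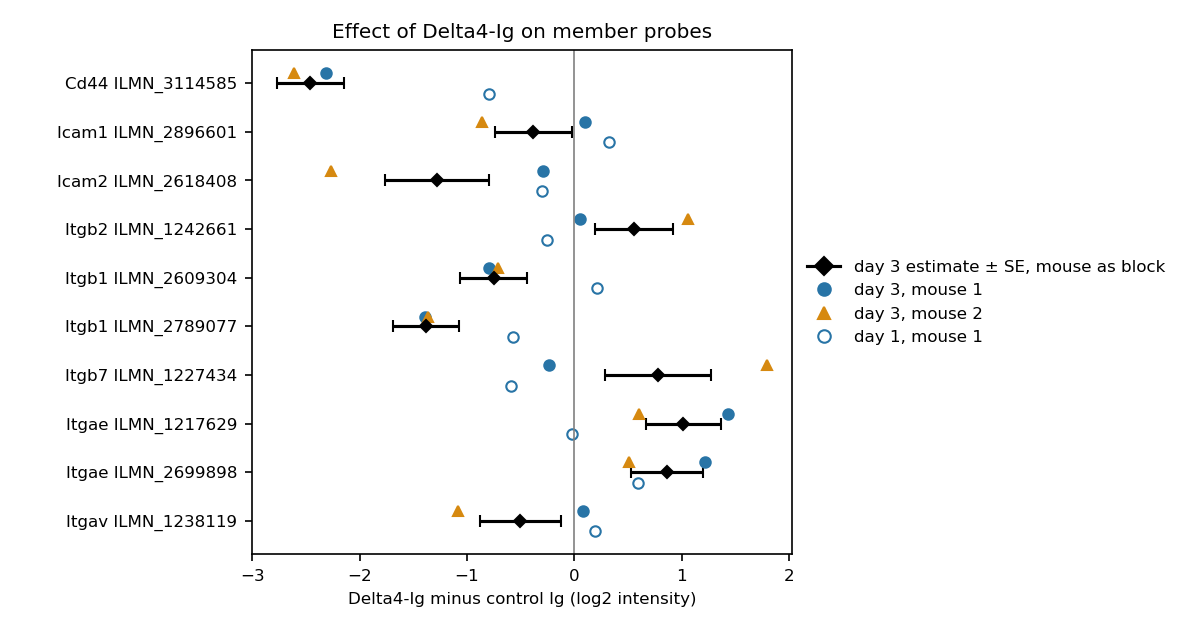
Delta4-Ig minus control Ig in log2 intensity (x axis) for the 10 kept member probes (y axis). Diamonds with bars are the day 3 estimate and SE with the mouse as a block, filled circles and triangles are mouse 1 and mouse 2 at day 3, and open circles are mouse 1 at day 1. Cd44 lies at -2.46 with both mice close by, while Icam2 and Itgb7 are spread between mice (-0.30 and -2.26, -0.24 and 1.80).

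Among the alpha chains, Itgae (chr11:73090505-73147449) was near the detection limit. Its probe ILMN_2699898 was detected on all 3 Delta4-Ig arrays and 0 of 3 control arrays at day 3. It stood at 5.62 and 5.42 with control Ig and at 6.84 and 5.93 with Delta4-Ig, at least 1.16-fold higher, and did not pass (0.86 ± 0.34, limma adjusted p = 0.465 with the block). ILMN_1217629 was detected on the 2 Delta4-Ig arrays of mouse 1 only. It stood at 5.27 and 4.92 with control Ig and at 6.70 and 5.51 with Delta4-Ig (1.01 ± 0.35, limma adjusted p = 0.383). ILMN_1217629 was kept solely through the group in which it was high, and ILMN_2699898 solely through Delta4-Ig arrays, so their direction was set in part by that filter and is no support. The other 4 Itgae probes were detected on no array.

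Itgav (chr2:83722303-83806917), the alpha chain of vitronectin-type receptors, stood at 7.40 and 7.75 with control Ig and at 7.48 and 6.67 with Delta4-Ig at day 3. Its differences were 0.08 in mouse 1 and -1.09 in mouse 2 (-0.50 ± 0.38, limma adjusted p = 0.731 with the block). The Itga4 probe (chr2:79255426-79333114) read 4.54 to 4.84, not detected in any sample. Itgal (chr7:127296139-127335137) was not analysed here.

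Counts by mouse are given without the 2 Itgae probes, for the 8 probes of 7 genes that were detected with both stimuli at day 3. The shares over all probes beside them still hold probes kept through 1 stimulus. In mouse 1, 2 of the 8 probes, those of Cd44 and ILMN_2789077 of Itgb1, were lower by at least 2-fold and 0 higher, where 6.55% of all probes differed by that much. In mouse 2 it was 6 of 8, 2 higher and 4 lower, where 18.1% did. The day 3 groups did not overlap for 3 of the 8 probes, that of Cd44 and both of Itgb1, against 25% of all probes. ILMN_2789077 is in these counts although it met the filter only through control Ig arrays, where it was high. Its lower direction was therefore set in part by that filter.

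At day 1, in mouse 1, 0 of the 10 probes differed by 2-fold between stimuli, where 1.51% of all probes did. The Delta4-Ig differences then were -0.79 for Cd44, 0.32 for Icam1, -0.30 for Icam2, -0.25 for Itgb2, -0.59 for Itgb7 and 0.19 for Itgav. For Cd44 the day 3 effect minus the day 1 effect was -1.67 ± 0.54 with the block, which did not pass (limma adjusted p = 0.999, unadjusted p = 0.0177), so a difference between the days was not shown. In this contrast limma called 0% of probes with the block, where 370 probes and 1 member probe had an unadjusted p under 0.05. Without it, limma also called 0%, where 64 and 0 had.

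The difference between mouse 2 and mouse 1 at day 3 varied over all kept probes with SD 0.746 for control Ig and SD 1.06 for Delta4-Ig. Between mouse 2 and mouse 1, 1 of 10 member probes differed by at least 2-fold with control Ig, where 13% of all probes did, and 5 of 10 with Delta4-Ig, where 30% did. Without the Itgae probes these counts were 1 and 4 of 8. For Icam2, mouse 2 minus mouse 1 was -1.64 with control Ig and -3.61 with Delta4-Ig. It was 0.94 and 2.98 for Itgb7, and 0.85 and 1.86 for Itgb2. Beside these, the summed linear intensity of the 8 CD4 T cell markers was 88798 in mouse 2 with Delta4-Ig. It was 51747 in mouse 1 with Delta4-Ig and 50381 to 60687 with control Ig. This sum weighs the brightest probes most, and its markers did not move alike. From mouse 1 to mouse 2 with Delta4-Ig, Cd5 went from 11.50 to 10.82 and Lat from 13.06 to 13.09, while the others were higher in mouse 2. The 5 NK cell markers summed to 725 in mouse 2 with Delta4-Ig, 171 in mouse 1 with Delta4-Ig, and 458 to 596 with control Ig, with Klrb1c and Ncr1 detected on no array. The members of that list went different ways: Klrd1 stood at 5.11 and 7.16 with control Ig and at 5.31 and 9.13 with Delta4-Ig, while Eomes, also a transcription factor of activated T cells, stood at 8.31 and 8.07 and at 5.38 and 5.48. Eomes was detected on 0 of 3 Delta4-Ig arrays, was at least 4.58-fold lower and fell with the block (limma adjusted p = 0.0167), not without it. Klrk1, detected on 2 of 8 arrays, stood at 4.85 and 6.90 with control Ig and at 4.73 and 5.82 with Delta4-Ig at day 3. For CD8 T cells the sums were 1537 and 742 with Delta4-Ig and 597 to 1061 with control Ig, with Cd8a detected on no array. The other marker, Cd8b1, was detected on all 8 arrays. It stood at 9.16 and 10.01 with control Ig and at 9.48 and 10.56 with Delta4-Ig at day 3. The part of NK and CD8 T cells in the results was not tested.

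By Pearson correlation over the 6 samples, among 6494 genes detected in every day 3 control sample, the patterns most like that of Cd44 were those of Nrp1 (r = 0.995), Ube2e2 (0.984), Slc1a2 (0.977), Apobec1 (0.970) and Unc13b (0.968). The 6 samples share mice and a chip, and the values describe likeness only. Nrp1, a co-receptor for semaphorins and VEGF, stood at 10.30 in both mice with control Ig and at 8.73 and 8.20 with Delta4-Ig at day 3. Ube2e2, a ubiquitin-conjugating enzyme, stood at 9.38 and 9.52 and at 7.74 and 7.40. Slc1a2, a glutamate transporter, Apobec1, a cytidine deaminase that edits RNA, and Unc13b, known from vesicle release, were detected on 3 of 3 control Ig arrays and 0 of 3 Delta4-Ig arrays at day 3, at least 7.06-fold, 4.90-fold and 2.79-fold lower with Delta4-Ig. Likeness to Cd44 chose these genes, so their differences are a description and no test is given.

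**Figure D4:**
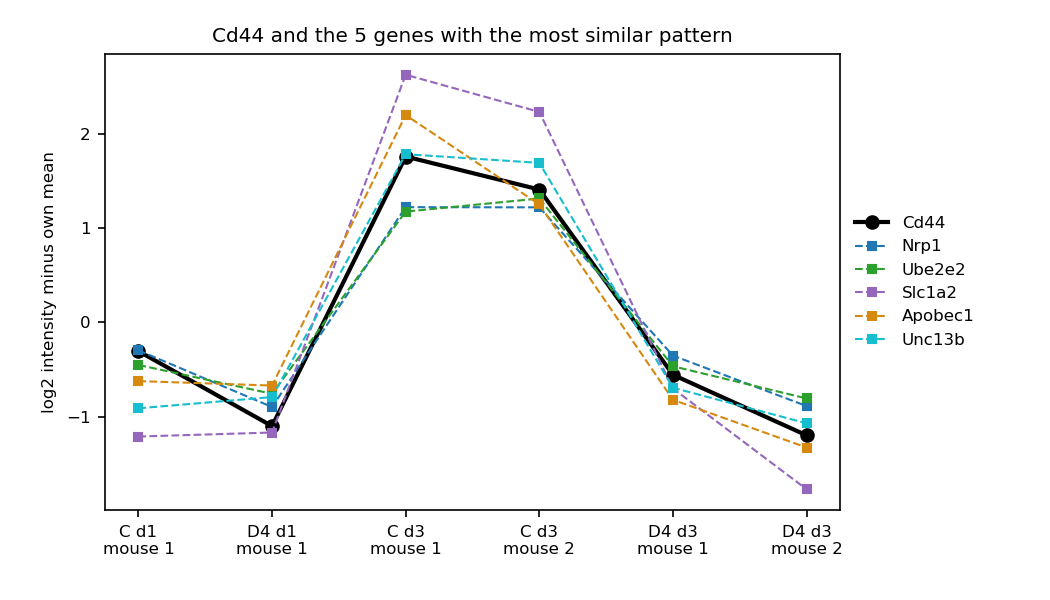
Log2 intensity minus the gene's own mean over the 6 samples (y axis) for Cd44 (thick black line) and the 5 genes most like it (dashed), by sample (x axis: C control Ig, D4 Delta4-Ig, d1 day 1, d3 day 3). All 6 lines peak in the 2 control Ig samples of day 3, which follows from choosing the 5 genes by likeness to Cd44. Lines join samples for the eye only.

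For Itgae, represented by ILMN_2699898, which was detected on 4 of 8 arrays, all with Delta4-Ig, the patterns most like it among 6495 genes were those of Zc3h14 (r = 0.957), Rnf113a1 (0.945) and Hvcn1 (0.942), a proton channel gene. These 6495 genes were those detected in every day 3 control sample, where Itgae itself was detected on no array. Genes without detection there, like Itgae, were not searched. The likeness rests in part on Itgae values at background. The day 3 differences of Zc3h14, Rnf113a1 and Hvcn1 were 0.17, 0.58 and 0.39.

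Other adhesion genes were followed in lists of integrin chains, ligands, activation and cytoskeletal genes, membrane linkers and other T cell adhesion genes. Over these 5 lists of 122 other adhesion genes, 59 were kept. At day 3, 0 rose and 1 fell, where 0.707% of all tested probes were called in either direction and 0.289% lower. The gene that fell was Cd226, an adhesion and costimulatory receptor of T and NK cells. It stood at 10.25 and 8.78 with control Ig and at 7.95 and 6.84 with Delta4-Ig, without overlap, and fell 4.34-fold (-2.12 ± 0.32, limma adjusted p = 0.0406 with the block, not called without it). Crtam, a receptor of the same list, differed by -1.20 and did not pass. The median of that list, 24 T cell adhesion and tetraspanin genes, was -0.00, beside -0.05 over 7504 genes.

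Of 23 kept genes for integrin activation and linkage to the cytoskeleton, 0 passed, with a median of 0.09. The actin crosslinker gene Actn1 differed by -2.53 in mouse 1 and -0.87 in mouse 2 (-1.70 ± 0.44, limma adjusted p = 0.193 with the block), and the actin regulator gene Evl by -1.98 and -0.73 (-1.35, adjusted p = 0.262). Of 6 kept membrane linkers and partners of CD44 and ICAMs, 0 passed, with a median of 0.03. Among them Cd74, the invariant chain that pairs with CD44 as a cytokine receptor, stood at 11.08 and 9.30 with control Ig and at 9.53 and 7.50 with Delta4-Ig (-1.68 ± 0.31, limma adjusted p = 0.0854), and Slc9a3r1, a scaffold protein gene, differed by 0.57.

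Of the other integrin chains 3 of 17 on the array were kept and 0 passed. Itgb5 differed by 1.00 and was detected on 0 of 3 control arrays and 2 of 3 Delta4-Ig arrays, and Itga6 differed by 0.80, on 1 and 2 of 3 arrays. Itgb5 was kept solely through the group in which it was high, so its direction was set in part by that filter and is no support. Of the ligands 3 of 14 were kept and 0 passed, with Srgn, a proteoglycan core protein gene, at 0.41 and the cytokine gene Tgfb1 at 0.38.

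**Figure D5:**
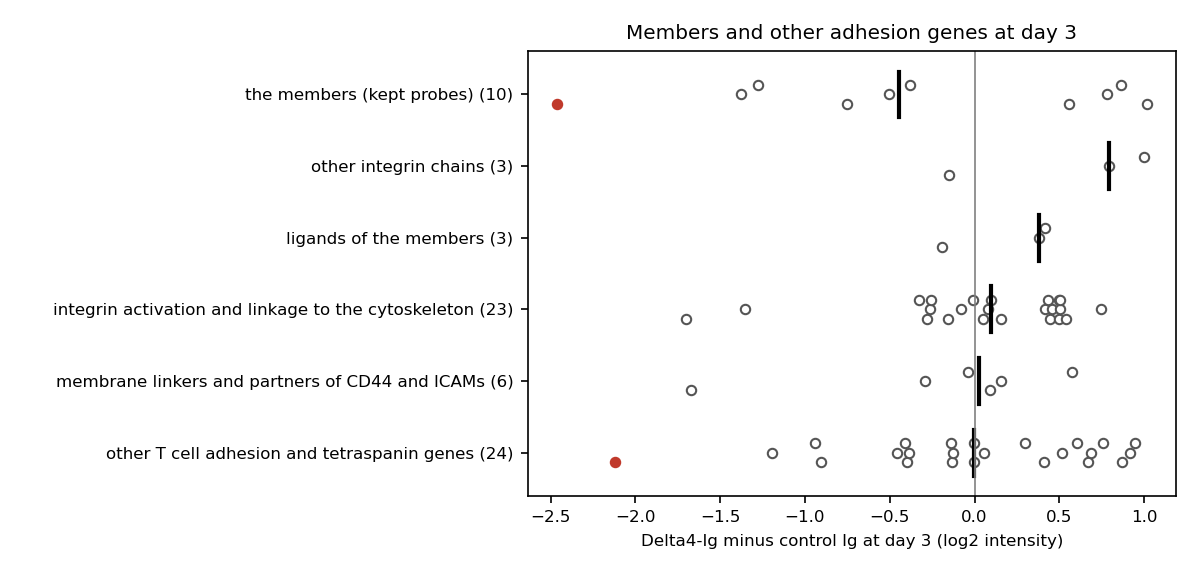
Day 3 Delta4-Ig minus control Ig in log2 intensity (x axis, fit with the mouse as a block) for the 10 kept member probes and the 59 kept genes of the 5 other adhesion lists (y axis, number kept in brackets), with vertical bars at the medians. Filled red points passed the threshold with the block, Cd44 at -2.46 and Cd226 at -2.12, and the medians of the 5 lists lie between -0.00 and 0.80. The highest median is that of the 3 other integrin chains, of which Itgb5 was kept solely through Delta4-Ig arrays.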

How the data were processed

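Biotin-labelled RNA of 6 samples was measured on 8 arrays of 1 chip. The authors deposited, per probe and array, a non-normalized intensity on a linear scale with a detection p-value, and a second table of log2 values. GenomeStudio and limma are named per the submitters' processing notes, without versions. The deposited log2 values have no stated scale. They differed from those computed here by at most 0.0417, and by at most 0.00524 for member probes, with column medians of 5.28, and served as an alternative.

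Intensities were background-corrected and quantile-normalized (neqc, limma 3.58.1, R 4.3.3, offset 16). Probes with a detection p under 0.01 on at least 2 arrays were kept (10744 of 25697). The annotation gave 1 symbol for 23978 probes and left 1719 unnamed here. A fold written as "at least" sets the mean of the bright group against a group without any detected array, using each array's lowest detected signal as a floor. No columns were left unused (0), and the number of arrays limits the precision.

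Technical arrays were averaged. A model of the 4 groups was fitted to all kept probes with lmFit and eBayes, with Benjamini-Hochberg adjustment and a threshold of 0.05. The main fit had no mouse term (2 residual degrees of freedom). The other held the mouse as a block (1 residual and 6.08 prior degrees of freedom), since the labels number the animals. Differences between mice correlated at r = 0.607 between stimuli at day 3. The spread of day 1 was taken from day 3. Both fits were also run on simulated data, but no outcome is given here, so this is no support for either fit. Background correction, offset, scaling, detection filter, deposited values, technical arrays and left-out mice were varied as alternatives.

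Members, lists and tests were chosen with earlier results of these data known. By the naming rule, all members were named with their probes, and of each other list the genes past the threshold and the 2 with the largest day 3 difference. The 5 genes most like Cd44 and the 3 most like Itgae were named by correlation. Levels of a listed gene come from its probe with the highest mean. Gene positions and promoters are those of RefSeq (GRCm38.p6).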

Additional observations from a re-analysis of the deposited data

Results flagged for a closer look

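For 3 member probes the Delta4-Ig difference at day 1 had one sign and that in both mice at day 3 the other. Itgb2 (ILMN_1242661) went from -0.25 at day 1 to 0.05 and 1.06 at day 3, a change of 0.81. Its 0.05 in mouse 1 was less than the gap between technical arrays, 0.14 with control Ig and 0.17 with Delta4-Ig. Itgb1 (ILMN_2609304) went from 0.21 to -0.80 and -0.71, a change of -0.96. Itgae (ILMN_1217629) went from -0.02 to 1.43 and 0.60, a change of 1.04, and was not detected at day 1. This Itgae probe was kept solely through the Delta4-Ig arrays in which it was high, so its direction was set in part by that filter. Day 1 is 1 sample per stimulus, and none of the 3 passed the limma test of the difference between days, which called 0 of 10744 probes with or without the block.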

How the results depend on the processing

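The mice pair the samples, and the replicate block changed which calls were made. At day 3 the main fit called 0 member probes. The replicate block called 1, each array counted as a sample 1, and, with the block, series matrix values 1, an offset of 50 1, detection on all arrays 1, 75th percentile scaling 2 (Cd44 and Itgb1) and each array counted as a sample 4, an alternative chosen after seeing the data. With the block but no background correction or no detection filter it was 0. With these settings the blocked count over all probes was 76 in the fit reported, 264 with 75th percentile scaling, 82 with matrix values, 53 with an offset of 50, 21 with detection on all arrays, 589 with arrays as samples and 0 for both others. For Cd44 the day 3 difference was -2.46 with the block alone, with 75th percentile scaling, with matrix values and with detection on all arrays, -2.41 with arrays as samples with or without the block, and -2.38 with an offset of 50, past the threshold in each. Over time with control Ig the member count, 0 in the main fit, was 1 with the block, with matrix values and with an offset of 50, 2 with 75th percentile scaling or detection on all arrays (Cd44 and Icam1) and 3 with arrays as samples. It was 0 with the block without background correction or without the detection filter, and 0 with arrays as samples but no block (Cd44 adjusted p = 0.0706). Over all probes the blocked count with control Ig was 310 in the fit reported, 313 with matrix values and 199 with an offset of 50. It was 676 with 75th percentile scaling, 242 of 7913 with detection on all arrays and 1606 with arrays as samples. With Delta4-Ig the member count was 1 (Icam1) with the block and arrays as samples, where 1575 of all probes were called. Of the other adhesion genes the block called 1, the main fit 0. Leaving out a mouse of a group, possible only without the block, gave day 3 ranges of -2.78 to -2.14 for Cd44, -1.23 to 0.47 for Icam1, -3.08 to 0.52 for Icam2, -0.38 to 1.48 for Itgb2 and -0.71 to 2.27 for Itgb7. The last 4 changed sign without mouse 2 of Delta4-Ig. The time difference with Delta4-Ig ran from -0.10 to 0.54 for Cd44 and from -0.12 to 1.58 for Icam1. Of 200 values of single probes under the other alternatives, 186 kept direction and side of the threshold, 14 newly passed it and 0 reversed. These values do not include Cd44 at day 3 or the settings without a mouse, where 6 reversed. The block and the detection filter cannot change the day 3 estimate, so direction could not reverse there. Signal over background limits Itgae, Itga4 and the weaker Cd44 probes.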
